A study of Mus musculus with 6 samples.

Results

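The genes described here carry glucose into the cell, break it down to lactate, or switch that breakdown on when oxygen is short. They are 10 genes chosen by name: the glucose transporters Slc2a1 and Slc2a3, the glycolytic enzymes Hk1, Hk2, Pfkl, Aldoa, Pgk1, Eno1 and Ldha, and the transcription factor Hif1a. They are 10 of the 39171 genes listed in each library, and each name had 1 row. RNA was sequenced from CD4+ T cells taken out of the spleen of C57BL/6 mice, which the study describes as premenopausal. The AngII group had 3 mice infused with angiotensin II, the pressor peptide of the renin-angiotensin system, at 800 ng/kg/min for 14 days from an osmotic minipump. The Control group had 3 untreated mice, for which no sham pump is named. Mice of both groups were 10 weeks old when these periods began, and each mouse gave 1 library. The comparison asks which transcripts of helper T cells differ after a hypertensive stimulus in such mice.

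Glucose enters T cells through facilitative transporters of the SLC2A family. Hexokinase traps it as glucose 6-phosphate, phosphofructokinase commits it to glycolysis, and aldolase, phosphoglycerate kinase and enolase lie on the way to pyruvate, which lactate dehydrogenase A reduces to lactate. HIF-1 is a dimer of HIF1A and ARNT. HIF1A protein is hydroxylated and degraded when oxygen is plentiful, so its activity is set largely after transcription. When stable, it drives many glycolytic genes, and resting T cells run little glycolysis until antigen receptor and CD28 signals raise it through MYC, mTOR and HIF1A.

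Short sequence motifs were searched for in the promoters of these genes. HIF-1 binds a core of ACGTG or GCGTG, and CACGTG is the E-box bound by MYC and USF factors. Both strands of the 250 bases before each start were searched in RefSeq promoter windows (build GRCm38.p6). There Slc2a3 had no window, and the other 9 of the 10 genes had 15 start windows. ACGTG or GCGTG was present in 13 of those 15 windows, and in at least 1 window of each of the 9 genes. Among all 32817 mouse windows of this length the share, counted per window, was 38.6%. That share was not matched for G and C content, though ACGTG and GCGTG each hold CG. The 2 windows without a match, 1 of Hk1 and 1 of Aldoa, had the lowest G and C content, at 49.6% and 50.4%. The 13 with a match ran from 54.4% to 71.2%. An E-box holds ACGTG on both strands, so it counts both as ACGTG and as an E-box. E-boxes were present in 2 of the 15 windows, 1 of Ldha and 1 of Hif1a, against 6.02% of all windows. Some start windows of Aldoa and of Eno1 overlap each other, and a match is a run of letters, with no measurement of binding here. Shown are the 5 windows that hold ACGTG and touch no annotated exon; windows of Eno1 and Ldha that hold GCGTG alone are left out, with every match in capitals. CACGT in capitals is ACGTG read on the opposite strand.
Ldha: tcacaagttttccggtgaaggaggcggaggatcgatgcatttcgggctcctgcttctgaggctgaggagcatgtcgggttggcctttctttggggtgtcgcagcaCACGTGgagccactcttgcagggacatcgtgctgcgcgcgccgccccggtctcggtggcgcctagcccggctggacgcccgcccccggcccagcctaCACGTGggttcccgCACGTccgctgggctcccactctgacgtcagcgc
Hif1a: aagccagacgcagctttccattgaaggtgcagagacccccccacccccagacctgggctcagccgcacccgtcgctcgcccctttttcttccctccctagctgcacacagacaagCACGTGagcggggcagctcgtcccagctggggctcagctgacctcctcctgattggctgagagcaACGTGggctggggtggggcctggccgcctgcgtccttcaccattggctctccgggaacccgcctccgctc
Pgk1: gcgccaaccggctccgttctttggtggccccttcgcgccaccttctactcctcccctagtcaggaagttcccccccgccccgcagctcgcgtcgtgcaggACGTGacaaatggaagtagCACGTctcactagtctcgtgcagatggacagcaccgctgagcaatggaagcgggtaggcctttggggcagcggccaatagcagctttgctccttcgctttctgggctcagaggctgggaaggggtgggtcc
Hk2: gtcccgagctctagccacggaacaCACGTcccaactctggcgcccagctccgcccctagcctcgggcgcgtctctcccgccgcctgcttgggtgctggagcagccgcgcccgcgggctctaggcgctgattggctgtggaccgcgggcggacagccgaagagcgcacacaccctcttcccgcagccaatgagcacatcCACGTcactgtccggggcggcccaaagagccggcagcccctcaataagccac
Aldoa: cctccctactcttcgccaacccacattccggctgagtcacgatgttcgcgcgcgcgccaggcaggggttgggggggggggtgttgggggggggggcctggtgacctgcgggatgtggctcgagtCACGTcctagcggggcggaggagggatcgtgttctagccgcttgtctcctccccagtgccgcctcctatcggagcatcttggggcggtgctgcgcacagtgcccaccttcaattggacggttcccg
The Ldha window (chr7:46845554-46845803, plus strand) holds 2 E-boxes and a further ACGTG 34 bases before the start. The Hif1a window (chr12:73907617-73907866, plus strand) holds 1 E-box and a further ACGTG 70 bases before the start. Pgk1 (chrX:106186850-106187099, plus strand) has ACGTG 150 and 131 bases before its start. Hk2 (chr6:82774455-82774704, minus strand) has it 226 and 52 bases before its start. The Aldoa window (chr7:126799255-126799504, minus strand), which also lies within Fam57b on the opposite strand, has it once, 126 bases before the start.

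Values are FPKM, fragments scaled to transcript length and library size, as the authors deposited them, so that levels of different genes can be compared per unit of length. The files give no counts, so the read depth behind each value is unknown. The sum of all FPKM was 613674 in the lowest library and 717286 in the highest, with 11438 to 11757 genes at 1 FPKM or more. Cd4, the co-receptor of helper T cells, was at 238.3, 214.2 and 231.9 FPKM in the AngII libraries and at 254.0, 228.9 and 203.0 FPKM in the Control libraries. Cd8a, which cytotoxic rather than helper T cells carry, reached 0.5514, 0.396 and 1.671 FPKM in AngII and 0.6386, 0.9128 and 1.013 FPKM in Control. Cd8b1, the other CD8 chain gene, was higher, at 9.72, 9.332 and 12.01 FPKM in AngII and at 10.07, 10.27 and 10.74 FPKM in Control. RNA of other spleen cells was present in both groups as well, and its levels are given beside the library profiles. In such bulk samples, fewer cells of a type and less RNA per cell cannot be told apart.

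None of the 10 genes passed the test for a difference between AngII and Control cells. Testing was done with limma on log2(FPKM + 1) over 11842 genes whose mean reached 1 FPKM, all 10 genes among them, with Benjamini-Hochberg adjustment over all of them. Each of the 10 had an adjusted p of 0.9999 against a threshold of 0.05. Of all genes tested, 4 passed, or 0.0338%. Even without adjustment, 0 of the 10 genes were under 0.05 by limma, against 208 of all genes tested. The authors' deposited table gave 0 of the 10 genes a p below 0.05, and a q of 0.999918 for each of them. The mean was higher in AngII for 6 genes and lower for 4, with a median log2 difference of 0.014, against a median of -0.004 over all genes tested.

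The intervals bound the size of each difference. All 95% intervals of the log2 differences, AngII minus Control, included 0, and their bounds ran from -0.26 to 0.45. The reach of an interval to either side of its estimate had a median of 0.192 for the 10 genes, against 0.263 for all genes tested, and was smallest for Aldoa at 0.13. These intervals rest on the spread between 3 mice per group. Differences on the log2(FPKM + 1) scale understate the change of a low gene, which touches Hk2 most.

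**Figure D1:**
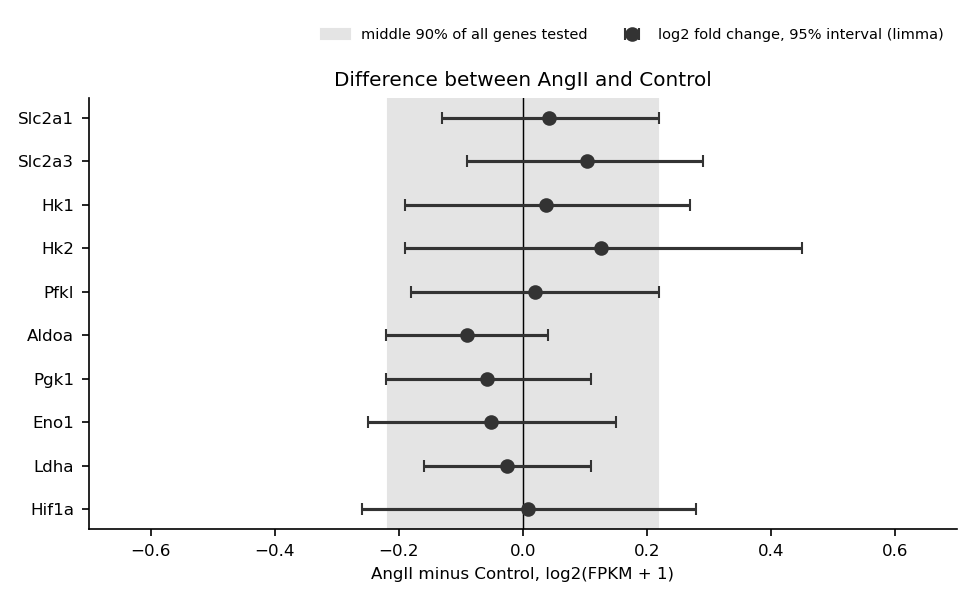
Log2 difference in log2(FPKM + 1), AngII minus Control, for each of the 10 genes, with points for the estimate and bars for its 95% interval from limma (n = 3 libraries per group); the grey shading, from -0.217 to 0.218, holds the middle 90% of all genes tested. Every interval crosses 0; Aldoa lies lowest at -0.09, and Hk2 lies highest at 0.13 with the widest interval.

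The 2 glucose transporters overlapped in level between the groups. Slc2a1 encodes GLUT1, the transporter that activated T cells move to their surface (ENSMUSG00000028645, chr4:119108711-119137983, plus strand, GRCm38 in GENCODE M21, which also gives the positions that follow). It was at 15.35, 14.35 and 16.11 FPKM in AngII libraries and at 15.26, 15.29 and 13.84 FPKM in Control libraries. The groups overlapped, with Control 3 lowest and AngII 3 highest. The log2 difference was 0.04 (SE 0.0717, adjusted p = 0.9999). Slc2a3 encodes GLUT3, a transporter of high glucose affinity (ENSMUSG00000003153, chr6:122727809-122801640, minus strand). It was at 25.98, 23.88 and 24.23 FPKM in AngII libraries and at 21.07, 23.01 and 24.79 FPKM in Control libraries. AngII 1 was highest and Control 1 lowest, but Control 3 lay above 2 of the AngII libraries, so the groups overlapped. Its mean was 24.7 ± 1.13 FPKM in AngII and 22.96 ± 1.86 FPKM in Control (SD, n = 3 each), a log2 difference of 0.10 (SE 0.0771, adjusted p = 0.9999).

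Both hexokinases overlapped between the groups. Hk1, the constitutive form bound to mitochondria, lies at chr10:62268855-62379908 on the minus strand (ENSMUSG00000037012). It was at 46.58, 39.7 and 42.52 FPKM in AngII libraries and at 46.46, 40.12 and 38.95 FPKM in Control libraries. AngII 1 and Control 1 stood above the other 4 libraries, which took in both groups, and the log2 difference was 0.04 (SE 0.0942, adjusted p = 0.9999). Hk2 is the inducible form, a known HIF1A and MYC target (ENSMUSG00000000628, chr6:82725025-82774454, minus strand). It was the lowest of the 10 genes, at 1.104, 1.552 and 1.312 FPKM in AngII libraries and at 1.103, 1.081 and 1.184 FPKM in Control libraries. AngII 2 and AngII 3 were above every Control library, while AngII 1 lay among them. The mean was 1.323 ± 0.224 FPKM in AngII and 1.123 ± 0.0543 FPKM in Control (SD, n = 3 each), a gap of 17.8% in mean FPKM. On the log2 scale the difference was 0.13 (SE 0.131, 95% interval -0.19 to 0.45, adjusted p = 0.9999), and with a pseudocount of 0.1 in place of 1 it was 0.207.

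Pfkl, the liver type subunit of phosphofructokinase, did not separate the groups either (ENSMUSG00000020277, chr10:77986947-78010083, minus strand). It was at 15.41, 14.41 and 16.53 FPKM in AngII libraries and at 16.45, 14.89 and 14.33 FPKM in Control libraries. AngII 3 and Control 1 were the highest, AngII 2 and Control 3 the lowest. AngII and Control differed by 0.02 on the log2 scale (SE 0.0802, adjusted p = 0.9999).

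**Figure D2:**
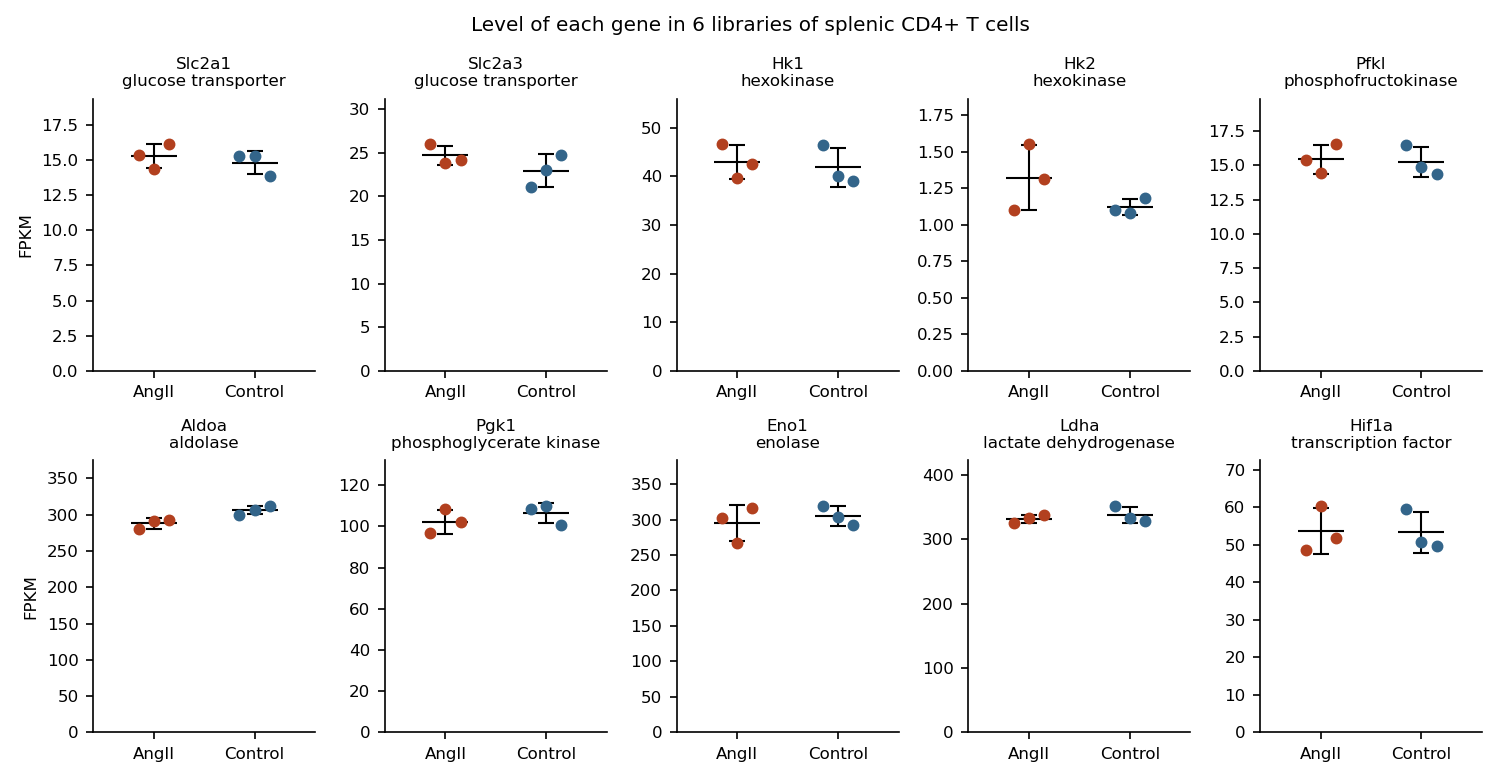
FPKM of each of the 10 genes in the 3 AngII libraries, drawn left, and the 3 Control libraries, drawn right, with the group mean and SD (each panel has its own linear axis). The points of the groups interleave in 9 panels; in the Aldoa panel all AngII points, at 279.9 to 292.5 FPKM, lie below all Control points, at 300.0 to 312.3 FPKM.

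Aldoa was the one gene of the 10 whose groups did not overlap. It encodes aldolase A, which splits fructose 1,6-bisphosphate (ENSMUSG00000030695, chr7:126795234-126800751, minus strand). It was at 279.9, 291.1 and 292.5 FPKM in AngII libraries and at 300.0, 306.9 and 312.3 FPKM in Control libraries. Every AngII library was below every Control library, with a difference of -6.07% in mean FPKM. The mean was 287.8 ± 6.9 FPKM in AngII and 306.4 ± 6.13 FPKM in Control (SD, n = 3 each). The log2 difference was -0.09 (SE 0.052, 95% interval -0.22 to 0.04) and did not pass the test (adjusted p = 0.9999). An exact two-sided permutation test gave p = 0.1, the smallest that 3 libraries against 3 can give. Groups without overlap and lower in AngII were found for 3.48% of all genes tested and for 1 of the 10 genes. Those higher in AngII were 2.36% of all genes and 0 of the 10. With quantile normalization the Aldoa difference was -0.031.

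The enzymes below aldolase overlapped between the groups. Pgk1 encodes phosphoglycerate kinase, which makes ATP in the payoff phase (ENSMUSG00000062070, chrX:106187100-106203699, plus strand). It was at 96.57, 108.2 and 101.9 FPKM in AngII libraries and at 108.6, 110.0 and 100.8 FPKM in Control libraries. AngII 1 was lowest and Control 2 highest, with the other 4 libraries interleaved, and the log2 difference was -0.06 (SE 0.0675, adjusted p = 0.9999). Eno1, which encodes the main enolase of most tissues (ENSMUSG00000063524, chr4:150236721-150248879, plus strand), was at 302.0, 266.5 and 316.1 FPKM in AngII libraries and at 319.4, 303.0 and 292.1 FPKM in Control libraries. AngII 2 was the lowest library, while the other 2 AngII libraries lay within the Control range. The log2 difference was -0.05 (SE 0.0821, adjusted p = 0.9999), and 0.006 with quantile normalization. Ldha, whose product makes lactate and regenerates NAD+ (ENSMUSG00000063229, chr7:46841475-46855627, plus strand), was at 325.1, 332.6 and 337.1 FPKM in AngII libraries and at 351.8, 332.8 and 327.7 FPKM in Control libraries. Control 1 was highest, and AngII 2 and Control 2 were almost equal. For Ldha the log2 difference was -0.02 (SE 0.0555, 95% interval -0.16 to 0.11, adjusted p = 0.9999), and 0.017 with quantile normalization.

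Hif1a, the oxygen-regulated subunit of HIF-1, had means that differed by 0.626% between the groups (ENSMUSG00000021109, chr12:73901375-73947530, plus strand). It was at 48.7, 60.44 and 51.78 FPKM in AngII libraries and at 59.65, 50.69 and 49.58 FPKM in Control libraries. AngII 2 and Control 1 stood near 60.44 and 59.65 FPKM, apart from the other 4 libraries, 2 of each group. The mean was 53.64 ± 6.09 FPKM in AngII and 53.31 ± 5.52 FPKM in Control (SD, n = 3 each). Hif1a had a log2 difference of 0.01 (SE 0.11, 95% interval -0.26 to 0.28, adjusted p = 0.9999). These are transcript levels, and HIF1A protein was not measured.

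Some of these genes have close copies or overlap other genes, and whether the authors' counting used strand is not given in the sources used here. Such copies were at or near 0: Eno1b, Aldoart1 and Ldha-ps were listed at 0 in every library, and the highest value among Aldoart2, Ldha-ps2 and Pgk1-rs7 was 0.1425 FPKM. Genes on the opposite strand that overlap Slc2a1 (Gm12867), Hk1 (Hk1os) and Hif1a (Gm15283) reached at most 1.0058, 1.6735 and 1.258 FPKM. On the same strand, Gm49321 overlaps Hif1a and the pseudogene Gm4482 overlaps Slc2a3. Neither is among the genes listed in the libraries, so their part in the Hif1a and Slc2a3 values is unknown. GENCODE M21 names 2 genes Aldoa, of which the files hold 1.

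The steps of the pathway differed widely in level while each varied little between mice. Over all 6 libraries Ldha averaged 334.5 FPKM, Eno1 299.8 FPKM and Aldoa 297.1 FPKM, each within the highest 2.21% of the genes tested. Pgk1 followed at 104.3 FPKM, Hif1a at 53.47 FPKM and Hk1 at 42.39 FPKM. Slc2a3 at 23.83 FPKM, Pfkl at 15.34 FPKM and Slc2a1 at 15.03 FPKM came after them, and Hk2 at 1.223 FPKM was last. Of the 9 pairs of neighbours in that order, 7 had library ranges that did not overlap. Eno1 and Aldoa, and likewise Pfkl and Slc2a1, did not differ beyond their spread. The ratio of the highest to the lowest library was 1.08 for Ldha, reached 1.24 for Hif1a and was above that for Hk2 alone, at 1.44.

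**Figure D3:**
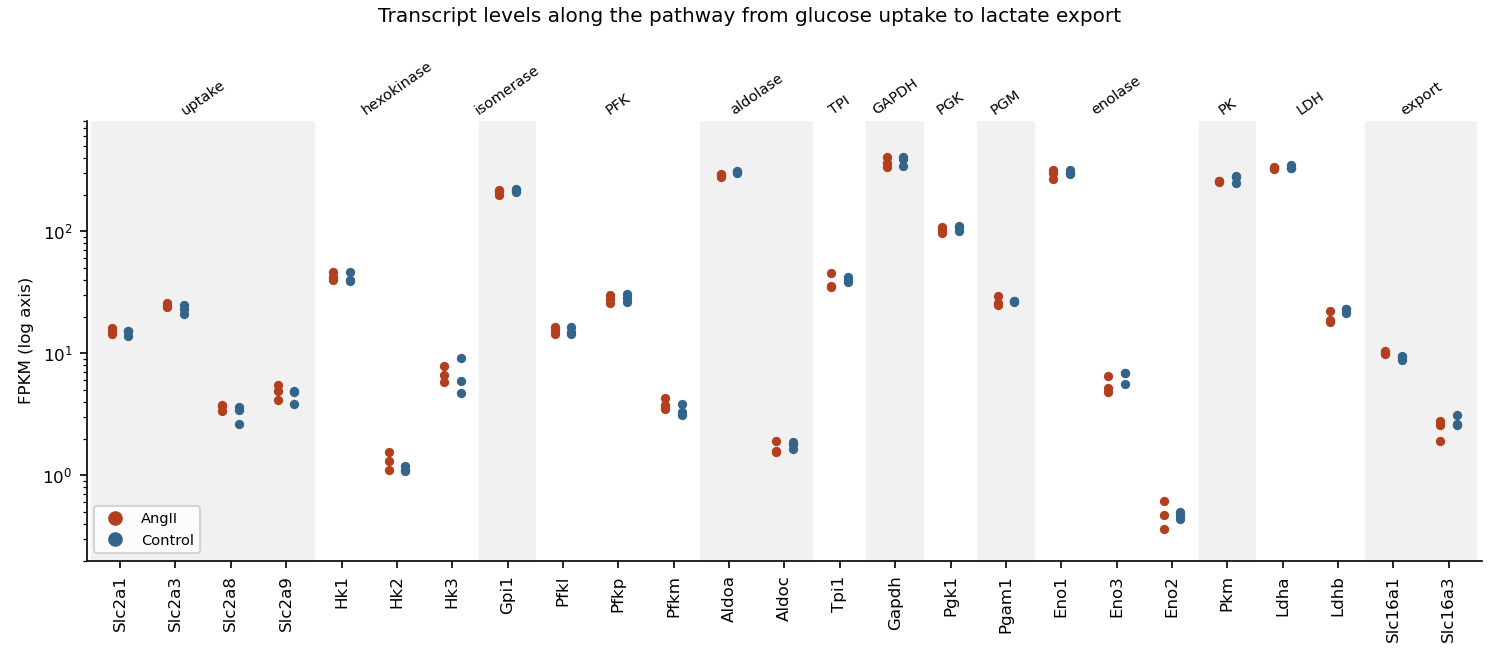
FPKM on a log10 axis for the genes, with their isoforms and the neighbouring enzymes, in the order of the pathway; each point is 1 library, AngII in red left of Control in blue. Aldoa, Eno1 and Ldha lie between 266.5 and 351.8 FPKM, Slc2a1, Slc2a3 and Pfkl between 13.84 and 25.98 FPKM, and Hk2 between 1.081 and 1.552 FPKM, and the steps differ far more than the groups.

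The isoform that supplied each step held a like share in every library. As a share of the summed FPKM of 5 transporter genes of the SLC2A family, Slc2a3 made up 49.5% to 52.0% in AngII libraries and 47.5% to 52.5% in Control libraries. Slc2a1 made up 29.7% to 33.1% in AngII and 29.3% to 34.4% in Control. Hk1 held 80.8% to 85.8% of hexokinase FPKM in AngII and 79.0% to 88.9% in Control, and Hk2 held 2.03% to 3.16% in AngII and 2.11% to 2.4% in Control. The remaining hexokinase signal was Hk3, which is known from myeloid cells, at 6.627, 7.903 and 5.869 FPKM in AngII libraries and at 4.712, 5.937 and 9.152 FPKM in Control libraries. Hk3 was highest in Control 3 and AngII 2, the libraries with most monocyte and macrophage marker RNA in their groups. Pfkl was not the main phosphofructokinase: it held 31.4% to 34.4% in AngII and 31.7% to 32.7% in Control, while the platelet type Pfkp held 58.0% to 61.0% in AngII and 60.2% to 60.7% in Control. Aldoa held at least 99.3% of aldolase FPKM, Eno1 at least 97.6% of enolase FPKM and Ldha at least 93.5% of lactate dehydrogenase FPKM in every library. Hif1a held 91.9% to 94.2% of the HIF alpha subunits in AngII and 92.8% to 94.0% in Control, with Epas1 (HIF-2 alpha) most of the rest.

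The 10 genes did not move as a block across libraries. On log2(FPKM + 1) centred on each gene's mean of 6 libraries, AngII 2 was below average for Eno1 (-0.167), Hk1 (-0.089) and Pfkl (-0.082) and above average for Hk2 (0.203) and Hif1a (0.179). Control 3 was below average for Hk1 (-0.115), Slc2a1 (-0.11), Hif1a (-0.102) and Pfkl (-0.09). Control 1 was above average for Hif1a (0.16) and Hk1 (0.133) and below average for Slc2a3 (-0.167). The mean over the 10 genes stayed between -0.042 in Control 3 and 0.041 in Control 1.

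**Figure D4:**
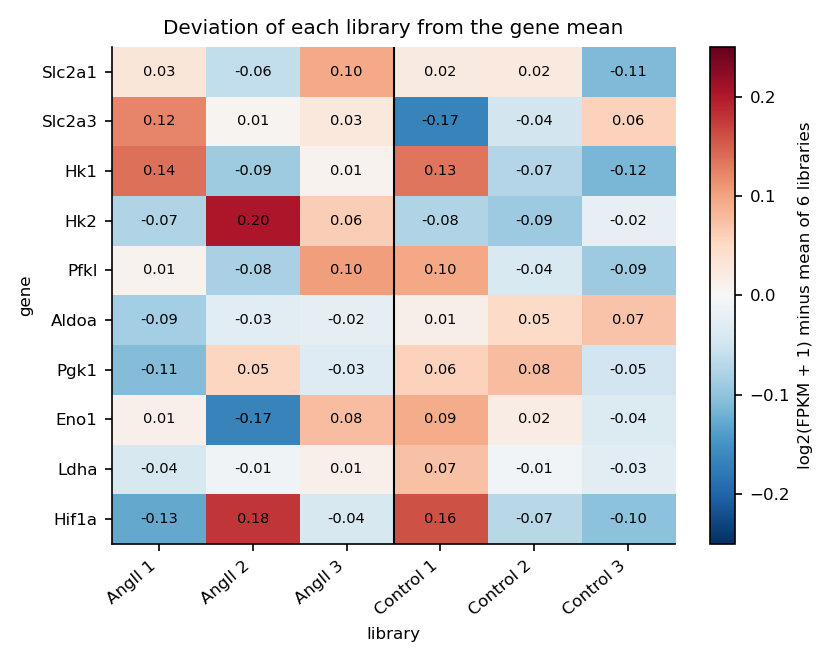
Deviation of each of the 10 genes in each library from that gene's mean over the 6 libraries, in log2(FPKM + 1), with AngII libraries left of Control libraries. Deviations range from -0.167 to 0.203, and no library is high or low for all 10 genes.

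Markers of other spleen cells differed between the libraries, and their part in these values was not tested. No marker gene passed the limma test, and the summed levels of all 9 marker lists overlapped between the groups. Monocyte and macrophage markers (8 genes, 5 with a higher mean in AngII) summed to 1014, 2006 and 966.1 FPKM in AngII libraries and to 755.4, 1147 and 1352 FPKM in Control libraries, with Cd14 listed at 0 in all. AngII 2, the highest of these, was also the library with the highest Hif1a and Hk2 and the lowest Eno1. For Hif1a and Hk2 the other libraries did not follow this order. Control 1, with the lowest sum, had Hif1a at 59.65 FPKM, near the 60.44 FPKM of AngII 2. Control 3, with a sum of 1352 FPKM, had Hif1a at 49.58 FPKM. Hk2 was at 1.184 FPKM in Control 3, under the 1.312 FPKM of AngII 3. Eno1 ran nearly opposite to the sums. It was highest in Control 1, at 319.4 FPKM, and next lowest after AngII 2 in Control 3, at 292.1 FPKM. A link was not tested. Granulocyte markers (8 genes, 7 with a higher mean in AngII) summed to 24.0, 75.47 and 73.7 FPKM in AngII and to 8.188, 8.068 and 42.07 FPKM in Control. B cell markers (6 genes, 0 with a higher mean in AngII) ranged from 581.0 to 943.0 FPKM in AngII and from 652.5 to 1146 FPKM in Control, where Control 3 was highest. Platelet markers (6 genes, all with a higher mean in AngII) ranged from 171.7 to 234.8 FPKM in AngII and from 102.9 to 268.1 FPKM in Control. CD4 T cell markers (8 genes, 1 with a higher mean in AngII) summed to 3448, 3272 and 3695 FPKM in AngII and to 3862, 3691 and 3272 FPKM in Control. The sums were 152.4 to 200.6 FPKM in AngII and 163.8 to 240.5 FPKM in Control for CD8 and NK cell markers (8 genes, 1 with a higher mean in AngII). Erythroid markers (8 genes, 5 with a higher mean in AngII) summed to 178.7 to 791.2 FPKM in AngII and 350.1 to 580.3 FPKM in Control. Dendritic cell markers (6 genes, 1 with a higher mean in AngII) summed to 6.738 to 8.722 FPKM in AngII and 6.44 to 14.0 FPKM in Control. For stromal and endothelial markers (6 genes, 5 with a higher mean in AngII) the sums were 53.8 to 58.53 FPKM in AngII and 50.82 to 55.05 FPKM in Control.

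The rest of the glycolytic enzymes also gave no call. Of 19 further enzyme genes, 14 were tested, and 0 passed in either direction, with 4 higher and 10 lower values in AngII and a median log2 difference of -0.037. Gapdh, which oxidizes glyceraldehyde 3-phosphate, was at 365.9 ± 34.3 FPKM in AngII and 378.8 ± 31.9 FPKM in Control (SD, n = 3 each). Pkm, the pyruvate kinase of T cells, was at 257.3 ± 4.54 FPKM in AngII and 269.6 ± 17.7 FPKM in Control. Their log2 differences of -0.05 and -0.07 turned to 0.010 and 0.013 with quantile normalization. Gpi1, the isomerase after hexokinase, differed by -0.05, Tpi1, the triose phosphate isomerase, by -0.05, and Pgam1, the mutase before enolase, by 0.01. Ldhb, the subunit that favours pyruvate, had the smallest unadjusted p of this list. It was at 18.11, 22.38 and 18.65 FPKM in AngII libraries and at 22.93, 23.18 and 21.3 FPKM in Control libraries. AngII 1 and AngII 3 were below all Control libraries, AngII 2 was not, and the log2 difference was -0.19 (adjusted p = 0.9999). Eno3, the muscle enolase, was at 5.531 ± 0.905 FPKM in AngII and 6.472 ± 0.721 FPKM in Control, and Pfkm, the muscle phosphofructokinase, at 3.838 ± 0.424 FPKM in AngII and 3.416 ± 0.357 FPKM in Control. Of 11 further genes of the glucose transporter families, 2 were tested, Slc2a8 and Slc2a9, with log2 differences of 0.12 and 0.09. Slc2a4, the insulin-responsive GLUT4, was among those under a mean of 1 FPKM.

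Among the regulators and exits of glycolysis, Pdk1 and Slc16a1 had groups that did not overlap, both higher in AngII and neither past the test. They are 2 of the 19 genes tested here, against 2.36% of all genes tested. Pdk4, which stayed under a mean of 1 FPKM and was not tested, also did not overlap, at 0.2128, 0.1664 and 0.1805 FPKM in AngII libraries and at 0.1469, 0.09452 and 0.08619 FPKM in Control libraries. Of the 22 genes in this list, 19 were tested, 0 passed, 12 were higher and 7 lower in value, and the median log2 difference was 0.029. Pdk1, a HIF1A target, encodes a kinase of pyruvate dehydrogenase. Pdk1 was at 66.02, 69.91 and 64.94 FPKM in AngII libraries and at 60.66, 61.44 and 49.97 FPKM in Control libraries. All AngII libraries were above all Control libraries, and Control 3 lay well under the rest. For Pdk1 the log2 difference was 0.23 (SE 0.0934, adjusted p = 0.9999), and 0.131 without Control 3. Slc16a1 encodes MCT1, which carries lactate and pyruvate across the membrane. It was at 10.14, 9.933 and 10.47 FPKM in AngII libraries and at 9.556, 9.242 and 8.834 FPKM in Control libraries. The groups lay close but apart, with a log2 difference of 0.13 (adjusted p = 0.9999). Slc16a3, the lactate exporter MCT4, was at 2.424 ± 0.473 FPKM in AngII and 2.789 ± 0.3 FPKM in Control, and Bsg, the chaperone of both carriers, differed by -0.07 on the log2 scale. Pdk2, a second kinase of pyruvate dehydrogenase, was at 6.233 ± 0.711 FPKM in AngII and 5.587 ± 0.314 FPKM in Control. The authors' deposited table gave Pdk1 a p of 0.1521 and Slc16a1 a p of 0.4805, each with a q of 0.999918.

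Partners of HIF1A and its other targets gave no call. Of 17 partner and oxygen sensing genes, 15 were tested, 0 passed, 8 were higher and 7 lower in value, and the median log2 difference was 0.002. Arnt, the constant partner in HIF-1, was at 18.49 ± 1.97 FPKM in AngII and 17.49 ± 1.35 FPKM in Control (SD, n = 3 each). Epas1 was at 3.582 ± 0.229 FPKM in AngII and 3.222 ± 0.262 FPKM in Control. The ligase that tags hydroxylated HIF1A gave values on both sides: Cul2, its scaffold, differed by 0.12 on the log2 scale, while Elob, its elongin B subunit, differed by -0.11 and Rbx1, its RING subunit, by -0.08. Siah2, a ligase acting on the HIF hydroxylases, differed by -0.14. Of 23 other HIF targets, Pdk1 included, 17 were tested, 0 passed, 7 were higher and 10 lower in value, and the median was -0.019. Pdk1 was the one tested gene of that list whose groups did not overlap, or 1 of 17. Over all genes tested, 2.36% were higher in AngII without overlap. Higd1a, a hypoxia-induced mitochondrial protein, had the smallest p of this list after Pdk1, at 11.22 ± 0.437 FPKM in AngII and 12.32 ± 0.611 FPKM in Control (log2 difference -0.12, adjusted p = 0.9999). Kdm3a, a histone demethylase, was at 18.81 ± 0.798 FPKM in AngII and 17.18 ± 1.63 FPKM in Control, and Ndrg1, a stress-induced gene, at 9.524 ± 0.506 FPKM in AngII and 8.63 ± 0.788 FPKM in Control. Vegfa, Adm and Car9, classical targets in hypoxic tissue, did not reach a mean of 1 FPKM. Of these untested genes, Adm had groups that did not overlap and was lower in AngII. It was at 0.0985, 0.1651 and 0.1847 FPKM in AngII libraries and at 0.2661, 0.228 and 0.3648 FPKM in Control libraries.

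Upstream of glycolysis, Txnip had the largest difference of its list without passing the test. Its protein, TXNIP, binds glucose transporters and lowers glucose uptake, and the gene itself is induced by glucose through MondoA (Mlxip) and Mlx. Txnip was at 698.0, 688.8 and 730.4 FPKM in AngII libraries and at 538.6, 671.3 and 509.0 FPKM in Control libraries. All AngII libraries were above all Control libraries, although Control 2 came close to AngII 2. Txnip was 1 of the 18 upstream genes that were higher without overlap, against 2.36% of all genes tested. The mean was 705.7 ± 21.9 FPKM in AngII and 572.9 ± 86.5 FPKM in Control (SD, n = 3 each). On the log2 scale AngII minus Control was 0.31 (SE 0.113, 95% interval 0.03 to 0.59, adjusted p = 0.9999) and ran from 0.23 to 0.43 over the alternative settings. The authors' deposited table gave Txnip a p of 0.038 and a q of 0.999918. Of the 18 upstream genes, all tested, 0 passed, 6 were higher and 12 lower in value, with a median of -0.020. Myc was at 51.9 ± 8.51 FPKM in AngII and 53.75 ± 3.48 FPKM in Control (SD, n = 3 each). Cd28, the co-stimulatory receptor, differed by -0.09 on the log2 scale, Irf4, a factor induced through the antigen receptor, by -0.18, and Prkaa1, the catalytic alpha 1 subunit of AMPK, by 0.09. Single libraries moved these values, to -0.005 for Cd28 without Control 1, -0.03 for Irf4 without Control 3 and 0.189 for Prkaa1 without AngII 2. Akt2, a kinase of the insulin and CD28 pathway, differed by -0.01, or 0.000 with median-of-ratios scaling and 0.024 with quantile normalization.

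Genes that accompany glycolysis in activated T cells gave no call either. Of 12 activation genes, all tested, 0 passed, 6 were higher and 6 lower in value, and the median log2 difference was 0.008. Cd69, an early activation marker, was at 111.9, 113.1 and 123.9 FPKM in AngII libraries and at 133.8, 138.5 and 124.6 FPKM in Control libraries. The groups did not overlap, though AngII 3 and Control 3 nearly met. Lower without overlap were 1 of the 12 activation genes and 3.48% of all genes tested. Its log2 difference was -0.18 (adjusted p = 0.9999). Il2ra, the alpha chain of the IL-2 receptor, was at 20.82 ± 1.81 FPKM in AngII and 19.85 ± 0.228 FPKM in Control (SD, n = 3 each). Tnfrsf9 (4-1BB) was at 19.79 ± 1.63 FPKM in AngII and 21.65 ± 0.471 FPKM in Control, and Cd40lg, the ligand that helper T cells show to B cells, at 76.16 ± 9.85 FPKM in AngII and 71.53 ± 1.2 FPKM in Control. The 14 immediate early genes, which answer stimulation and also cell handling, had 1 higher and 13 lower values and a median of -0.341, with 0 past the limma test. The authors' deposited table, which gives no direction here, called 2 of them, Fos and Fosb, each with a p of 5e-05 and a q of 0.0216471, and no other list gene had a q under 0.05 there. Fos and Fosb, named here after their values were seen, encode subunits of the AP-1 factor and had the largest differences of the list. Fosb was at 11.92, 34.42 and 17.15 FPKM in AngII libraries and at 77.11, 63.87 and 15.13 FPKM in Control libraries. Fos was at 142.9, 357.9 and 163.7 FPKM in AngII libraries and at 492.8, 574.9 and 150.7 FPKM in Control libraries. In both genes Control 3 lay between AngII 1 and AngII 3, so the groups overlapped. The log2 differences were -1.10 for Fosb and -0.78 for Fos (limma, adjusted p = 0.9999 each), and -1.813 and -1.385 without Control 3, -0.675 for Fosb without Control 1 and -0.423 for Fos without Control 2. The members of smallest limma p were Ier2 at -0.22, Btg2 at -0.11, Egr1 at -0.35 and Zfp36 at -0.41 on the log2 scale. The summed level of the 14 was 2734, 4203 and 3110 FPKM in AngII libraries and 4587, 4953 and 2993 FPKM in Control libraries, so the groups overlapped. Its part in the values above was not tested.

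**Figure D5:**
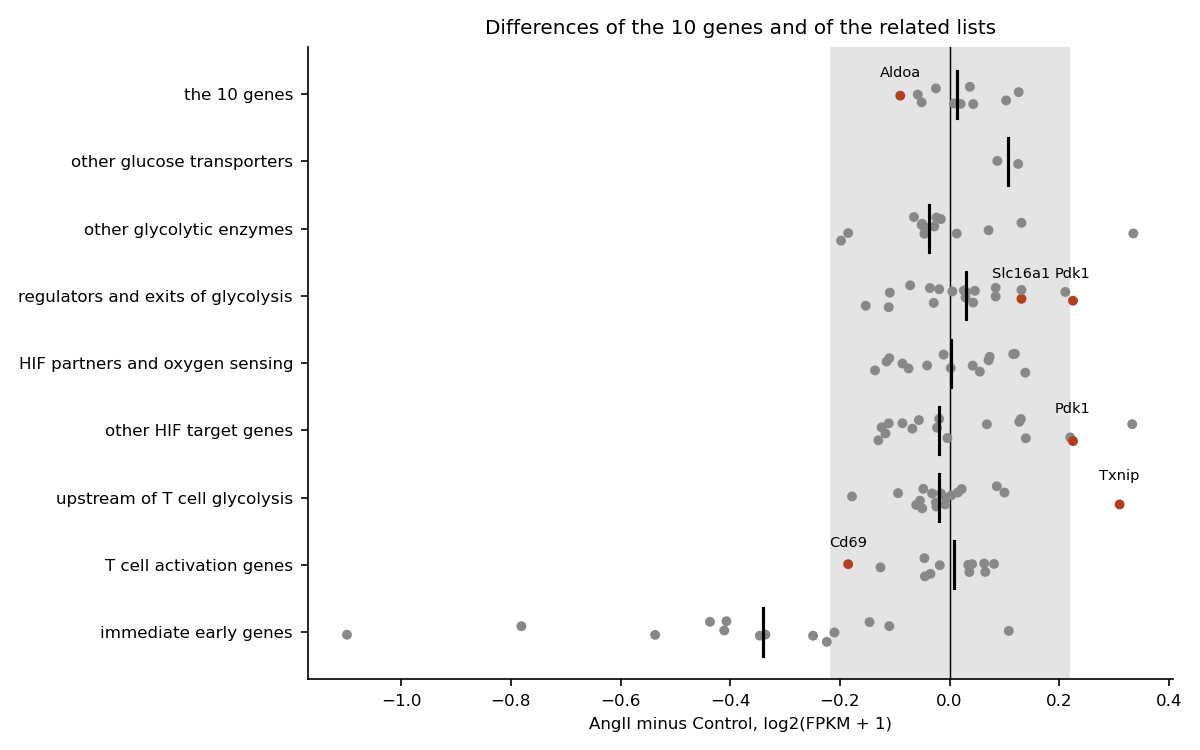
Log2 difference in log2(FPKM + 1), AngII minus Control, of each tested gene in the lists, 1 point per gene, with a bar at the median of each list, red points for genes whose groups do not overlap, and grey shading from -0.217 to 0.218, the 5th to 95th percentile of all genes tested. The 10 genes lie between -0.09 and 0.13; the median of the immediate early genes is -0.341, and those of the other lists lie between -0.037 and 0.106.

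The profile of the 10 genes over the 6 libraries was compared with those of the 107 tested list genes, by the root mean square difference of centred log2(FPKM + 1). The nearest profile was that of Akt2 at 0.019, followed by Gpi1 at 0.0401, Pdha1 (a pyruvate dehydrogenase subunit) at 0.0425, Bnip3l (a mitophagy receptor) at 0.0463 and Pkm at 0.0537. The mean profile of the 10 genes stayed near 0 in every library, so nearness here goes to genes that varied little.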

How the data were processed

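Splenic CD4+ T cells were isolated magnetically with a kit and libraries made by an Illumina TruSeq protocol, per the labels' protocols. The tools were Trimmomatic 0.32, TopHat2 2.1.1 and Cuffdiff, with build GRCm38.p3, per the submitters' processing notes; the Cuffdiff version, annotation and library settings were not given in the sources used here. Deposited by the authors was the FPKM of each gene in each of the 6 libraries, normalised to transcript length and library size. The authors' deposited table gives a p-value and a q-value per gene for 2 conditions named only by number, so its 2 value columns stayed out and it gives no direction here.

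From the deposited values, log2(FPKM + 1) was fitted with limma 3.58.1 in R 4.3.3 (eBayes with trend, two-sided) where the mean FPKM was at least 1, and called at a Benjamini-Hochberg adjusted p below 0.05. The same code was tested on simulated data. Depth is unknown, so precision rests on 3 libraries per group, each taken as 1 mouse as the study's design states. Low FPKM values were not whole multiples of a read, so no count test was run. An exact 0 can be a failed estimate. Of 211 listed genes, 210 were matched. Promoter windows were read from RefSeq (GRCm38.p6) and searched on both strands. Tables were handled in Python 3.11.15 with pandas 2.3.3.

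The 10 genes and all lists were chosen with earlier results of these data known. The genes named are the 10, up to 4 genes of smallest unadjusted p per list, a fixed set of glycolytic and HIF genes, marker genes and the 5 nearest profiles. Slc2a4, Vegfa, Adm, Car9, Mlxip, Pdk4, Fos, Fosb and Ddit4 were named from the lists after their values were seen. Alternatives were pseudocounts of 0.1 and 5, no filter or a mean of at least 5 FPKM, median-of-ratios scaling, quantile normalization, eBayes without trend, a replicate block, and leaving out each library.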

Additional observations from a re-analysis of the deposited data

How the results depend on the processing

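In all 14 alternatives run, 0 of the 10 genes passed the threshold; Hk2 was not tested at a mean of at least 5 FPKM. Of all genes, 4 passed, against 33 with no filter on low values (39171 genes tested). When 1 library was left out 4 to 9 passed, with 9 without AngII 3, 8 without Control 1 and 7 without Control 3. By limma, 208 genes had an unadjusted p below 0.05, against 912 without AngII 2, the most of any alternative. The cause was not tested. Deviations of same-numbered AngII and Control libraries correlated at -0.08, -0.023 and -0.035, and those of differently numbered ones at -0.029 to 0.06. No shared shift by replicate number was seen, which cannot tell whether mice or libraries were handled in pairs. With the replicate number as a block 3 genes passed, and 0 of the 10. Quantile normalization turned the log2 difference of Eno1 to 0.006, Ldha to 0.017, Pkm to 0.013, Gapdh to 0.010 and Akt2 to 0.024, and median-of-ratios scaling gave 0.000 for Akt2; the cause was not tested. Aldoa stayed between -0.105 and -0.031 over the alternatives, with a lowest adjusted limma p of 0.6598. Leaving out 1 library moved log2 differences across 0 for 16 genes: Slc2a1 ran from -0.002 to 0.084, Hk1 from -0.022 to 0.113, Pfkl from -0.027 to 0.073, Eno1 from -0.102 to 0.020, Ldha from -0.045 to 0.006 and Hif1a from -0.080 to 0.090. Among the list genes Slc2a9 ran from -0.001 to 0.182, Cd40lg from -0.001 to 0.184, Hk3 from -0.114 to 0.301, Pfkp from -0.074 to 0.030, Tpi1 from -0.171 to 0.018, Gapdh from -0.121 to 0.012, Pgam1 from -0.049 to 0.057, Myc from -0.142 to 0.080, Akt2 from -0.028 to 0.025 and Pdha1 from -0.007 to 0.074. Of the 52 genes refitted under the alternatives (the 10 and the named list genes, without markers), 17 changed sign at least once, and 45 moved by over 1.5 times when some library was left out. List medians near 0 crossed it. That of the 10 genes ran from -0.031 without Control 3 to 0.055 without Control 1. Those of 6 other lists changed sign in at least 1 alternative. The further genes of the glucose transporter families and the immediate early genes were the exceptions. Depth is unknown, so no floor can be given for genes listed at 0.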

Other observations

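Ddit4, a hypoxia and stress target that restrains mTOR, was chosen here after its values were seen. The authors' deposited table gave it a p of 0.00575 and a q of 0.798491. It was at 94.71, 40.45 and 81.8 FPKM in AngII libraries and at 47.67, 65.09 and 50.14 FPKM in Control libraries, so AngII 2 lay under every other library and the groups overlapped. Ddit4 had a log2 difference of 0.33 (limma, adjusted p = 0.9999), which was 0.096 without AngII 1 and 0.700 without AngII 2, with a lowest adjusted p of 0.6322 over 14 alternatives.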
